A study of Mus musculus with 5 samples.

Results

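Secreted growth factors through which cardiac progenitor cells can act on their neighbours were followed in 5 clones of mouse cells. The 10 genes were a chosen list: Adm, Fgf2, Fgf7, Angptl2, Angptl4, Angpt1, Angpt2, Hgf, Ptn and Mdk. All probe sets annotated to 1 of these symbols were used, which were 18 of the 45101 on the array, for 9 of the 10 genes. Angptl2 had no probe set in the annotation used here and has no value. The genes were picked from paracrine factors on their measured ratios in these same 5 arrays, so the differences between clones are described and not tested.

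The clones, named 1D, 11B, 20B, 30 and 42, came from the left ventricle of mice aged 5 to 6 months, of a strain that the labels spell C67BL/6. Cells were pulled out with an antibody to Sca-1, grown as spheres and then attached, and cloned with rings and by dilution; no treatment or genetic change is named, and no group is a control. The labels call every clone a c-kit+ cardiac progenitor cell, so each value belongs to 1 cultured clone, not to heart tissue. Total RNA of each clone was read on 1 Affymetrix array, which leaves no replicate and no test.

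Adrenomedullin is a small secreted peptide that widens vessels and steadies endothelial barriers, and it is made in larger amounts under hypoxia. Fibroblast growth factors and hepatocyte growth factor act on receptor tyrosine kinases, angiopoietins act on the endothelial receptor Tie2, and pleiotrophin and midkine are related heparin-binding cytokines. Angiopoietin-like proteins share the fold of angiopoietins without binding Tie2, and Angptl4 is best known as an inhibitor of lipoprotein lipase.

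The deposited values are ratios on a linear scale. By their pattern, some probe sets were scaled to their own median, which is then exactly 1, and low ones to a floor, which leaves the median below 1. Such ratios show differences between clones and carry no level, so genes were not ranked by abundance. To count as measured, a probe set needed a median of 1 or any clone above 1, and a range of more than 0.05 log2 units. By this rule 8 of the 18 probe sets and 6 of the 10 genes were measured, against 9435 of 18193 named genes in the whole table. The error used here was the disagreement between probe sets of the same gene, which had a standard deviation (SD) of 0.30 log2 units for a single probe set and 0.42 for a difference. The 18 probe sets for hybridization control transcripts had an SD of 0.08 log2 units, which covers hybridization and scanning only. Neither covers culture or RNA preparation, and the number of arrays limits the precision. Fewer cells making a transcript and less transcript per cell cannot be told apart in such bulk RNA. In an RNA integrity control, Actb signal near the start of the transcript over that near its end was lowest in clone 11B (0.597 with clone 20B set to 1), then in clone 30 (0.743). The same ratio for Gapdh was 0.893 and 0.966 in these clones. The 3 probe sets for 18S RNA were lowest in clone 11B, at 0.411 to 0.555. The poly-A controls, bacterial transcripts added to the RNA, had a median log2 ratio of 0.28 in clone 30 and -0.29 in clone 42, the direction in which Angptl4 differs between these clones. The part of RNA quality in the values below was not tested.

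Adm had the widest range of the 6 measured genes, and in the mean of its probe sets the clones fell into 3 levels. Clones 11B and 20B were high, clone 1D was intermediate, and clones 30 and 42 were low. On probe set 1416077_at the ratios were 1.00 in clone 1D, 1.95 in 11B, 2.08 in 20B, 0.749 in 30 and 0.666 in 42. On probe set 1447839_x_at they were 1.00, 2.65, 3.37, 0.281 and 0.319 in the same order of clones. Both probe sets therefore placed the same clones above and below clone 1D, but the size differed. On 1416077_at clone 1D exceeded clone 30 by 0.417 log2 units, within the SD of 0.42 for a difference, and clone 42 by 0.586. On 1447839_x_at it exceeded them by 1.83 and 1.65. Clone 20B exceeded clone 30 by 2.78-fold on the first probe set and by 12.0-fold on the second, and it exceeded clone 42 by 3.12-fold and 10.6-fold. The second probe set carries the mark of probes that can also bind other transcripts.

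**Figure D1:**
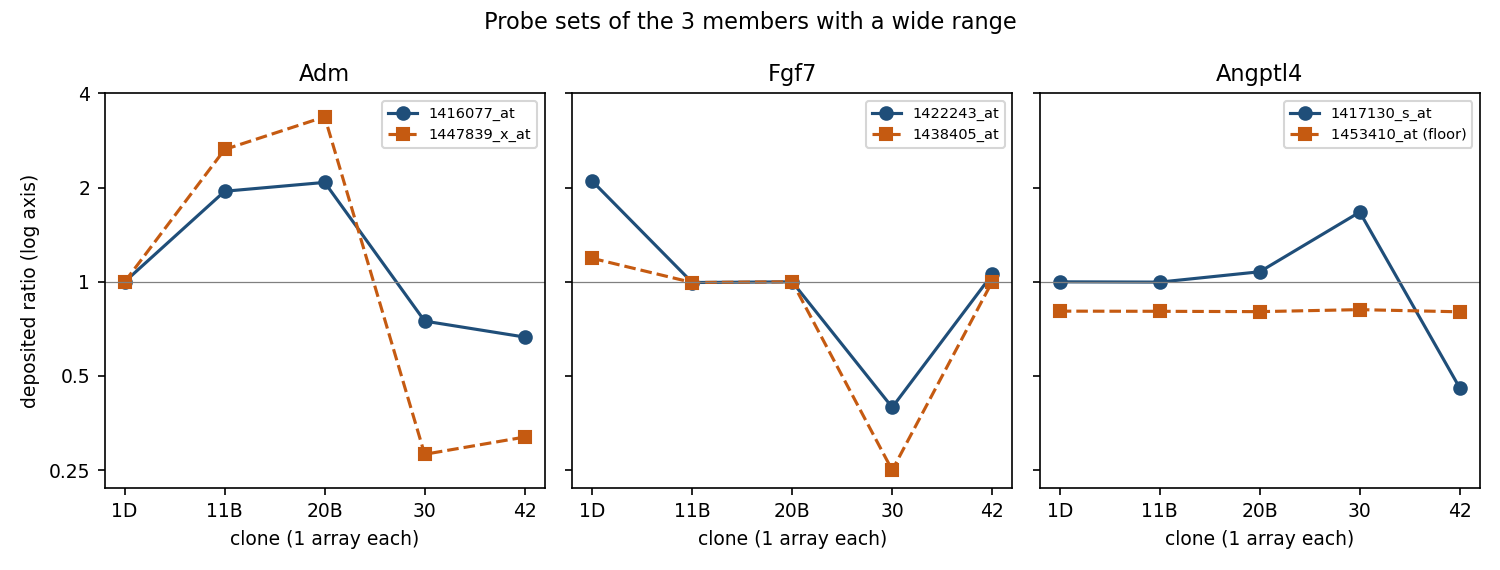
Deposited ratio (log axis) of each probe set of Adm, Fgf7 and Angptl4 in the 5 clones, 1 point per array. Adm is high in clones 11B and 20B and lowest in 30 and 42 on both probe sets, Fgf7 is lowest in clone 30, and 1 of the 2 Angptl4 probe sets is flat.

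Averaged over both probe sets, the log2 ratio of Adm was 1.40 in clone 20B, 1.18 in 11B, 0.00 in 1D, -1.12 in 42 and -1.12 in 30. The range was 2.53 log2 units, a 5.77-fold difference, and was wider than that of 99.3% of the measured genes. Clones 20B and 11B lay 0.22 apart and clones 42 and 30 lay 0.01 apart, both within the SD of 0.30 for a difference between means of 2 probe sets. The steps from 11B to 1D (1.18) and from 1D to 42 (1.12) exceeded it. This SD is pooled over all genes, and the Adm probe sets disagreed by more than it in the low clones. They read -0.42 and -1.83 in clone 30 and -0.59 and -1.65 in clone 42 on the log2 scale, so the step down from 1D is uncertain in size. Of the 10 pairs of clones, 8 differed by at least 1 log2 unit, which is 2-fold. With the unmarked probe set alone the range was 1.64 log2 units and the deviation of clone 30 from the median of the other clones was -0.90 in place of -1.72. With any 1 clone left out the range stayed between 2.31 and 2.53.

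Because adrenomedullin is a textbook hypoxia target, its promoter was searched for the core of the hypoxia response element on both strands. This core is written ACGTG, and its other spelling, which begins with a different base, is GCGTG. Fgf7, the other gene that varied on both probe sets, was searched in the same way. The search ran from 250 bases before to 50 bases after the RefSeq start in assembly GRCm38.p6. The windows below are printed to 30 bases after it, both on the plus strand, and capitals mark the matches. The printed Adm window is chr7:110627407-110627686 and the Fgf7 window is chr2:126034408-126034687.
Adm: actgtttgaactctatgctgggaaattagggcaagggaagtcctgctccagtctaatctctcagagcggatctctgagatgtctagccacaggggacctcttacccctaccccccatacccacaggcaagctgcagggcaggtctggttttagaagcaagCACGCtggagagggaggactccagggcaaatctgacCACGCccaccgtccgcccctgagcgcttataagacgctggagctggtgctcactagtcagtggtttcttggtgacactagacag
Fgf7: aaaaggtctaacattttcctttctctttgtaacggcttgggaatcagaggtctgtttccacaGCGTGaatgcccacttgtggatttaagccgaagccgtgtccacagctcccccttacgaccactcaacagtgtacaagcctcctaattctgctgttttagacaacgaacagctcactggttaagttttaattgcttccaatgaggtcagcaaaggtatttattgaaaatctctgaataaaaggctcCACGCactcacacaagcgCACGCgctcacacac
The Adm window held 2 copies of GCGTG, both on the opposite strand, beginning 90 and 54 bases before the start, and no ACGTG. The Fgf7 window held 3 copies of GCGTG and no ACGTG. Over all 32851 searched windows of this length 32.4% held GCGTG and 19.6% held ACGTG, so a match is common. The table had windows for 6 of the 10 members; Fgf2 and 1 of the 2 Hgf windows held GCGTG once, and those of Angptl2 and Ptn held no match.

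Fgf7, the keratinocyte growth factor, which mesenchymal cells make and epithelial cells receive, was low in clone 30. On probe set 1422243_at its ratio was 2.10 in clone 1D, 0.995 in 11B, 1.00 in 20B, 0.397 in 30 and 1.06 in 42. On probe set 1438405_at it was 1.19, 0.995, 1.00, 0.250 and 1.00. Clone 30 was lowest and clone 1D highest on both, while the other 3 clones lay together. The highest clone exceeded the lowest 5.29-fold on the first probe set and 4.76-fold on the second. For clone 1D the probe sets disagreed on the size, with 1.99-fold over clone 42 on the first and 1.19-fold on the second.

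The averaged log2 ratio of Fgf7 was 0.66 in clone 1D, 0.04 in 42, 0.00 in 20B, -0.01 in 11B and -1.67 in 30. Its range of 2.33 log2 units was wider than that of 99.0% of the measured genes. Clone 30 lay 1.66 log2 units, or 3.16-fold, below the next clone, and clone 1D lay 0.62 above the next, both beyond the SD of 0.30. Clones 42, 20B and 11B did not differ beyond it. The ratios 0.995 and 1.00 of clones 11B and 20B recurred together on 776 other probe sets, so these clones sat at a level that many probe sets share, and their closeness is no measurement of Fgf7. The wide range rested on clone 30: without it the range was 0.67 log2 units.

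Fgf2, the basic fibroblast growth factor, is a broad mitogen of mesenchymal and endothelial cells. Its single probe set, 1449826_a_at, gave ratios of 1.00 in clone 1D, 0.998 in 11B, 0.983 in 20B, 1.08 in 30 and 1.00 in 42. The range of 0.13 log2 units was within the SD of a difference, and the values of clones 1D, 11B and 42 were also found together on 1212 other probe sets. Without clone 30 the range was 0.03, so Fgf2 counted as measured only through that clone. No difference in Fgf2 could be read from these arrays.

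Angptl4 was low in clone 42 and high in clone 30 on 1 of its 2 probe sets. On probe set 1417130_s_at the ratios were 1.00 in clone 1D, 0.998 in 11B, 1.08 in 20B, 1.67 in 30 and 0.458 in 42. Clone 30 exceeded clone 42 by 3.65-fold, a range of 1.87 log2 units, wider than that of 98.1% of the measured genes. Probe set 1453410_at stayed below the floor, between 0.802 and 0.815, in all 5 clones and added no information. Clone 42 lay 1.12 log2 units, or 2.18-fold, below the next clone, and clone 30 lay 0.63 above the next. Both gaps exceeded the SD of 0.42 that applies to 1 probe set, while clones 20B, 1D and 11B did not differ beyond it.

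The pair of ratios in clones 1D and 11B recurred on 2531 other probe sets and is a shared level, and the informative probe set is marked for possible binding of other transcripts. With both probe sets averaged the range was 0.95 log2 units, and without clone 42 it was 0.74, so the call of at least 1 log2 unit was lost in both cases.

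Neither angiopoietin on the list gave a difference beyond the error. Angpt1, the activating ligand of Tie2, was not measured and had 2 probe sets, both below the floor, at 0.584 to 0.592 and at 0.457 to 0.463. Angpt2, which can block or activate Tie2 depending on context, had ratios of 1.00 in clone 1D, 1.15 in 11B, 1.00 in 20B, 0.989 in 30 and 0.994 in 42 on probe set 1459636_at. Clone 11B was highest, but the range of 0.22 log2 units was within the SD of 0.42, and probe set 1448831_at was flat at 0.996 to 1.00. Without clone 11B the Angpt2 range was 0.02, so the gene counted as measured only through that clone.

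Hgf, the ligand of the receptor Met and a mitogen and motility factor made by mesenchymal cells, did not leave the floor. Its 3 probe sets lay at 0.679 to 0.689, 0.921 to 0.931 and 0.608 to 0.616. All 3 were flat, with ranges under 0.05 log2 units. A position at the floor does not show that the transcript was absent.

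Pleiotrophin and midkine came out differently from each other in what could be followed. Ptn was below the floor on probe set 1416211_a_at, with ratios of 0.446 in clone 1D, 0.445 in 11B, 0.738 in 20B, 0.441 in 30 and 0.442 in 42. Clone 20B stood above the other 4, which agreed within 0.02 log2 units, and the range was 0.74 log2 units. The probe set did not count as measured, because no clone reached 1, and the other Ptn probe sets, 1448254_at and 1443173_at, were flat at 0.991 to 1.01 and 0.963 to 0.971. Mdk had 1 probe set, with 1.05 in clone 1D, 1.00 in 11B, 1.01 in 20B, 0.991 in 30 and 0.907 in 42. Its range of 0.21 log2 units was within the SD of a difference, and 1319 other probe sets repeat the pair of values of clones 11B and 20B.

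**Figure D2:**
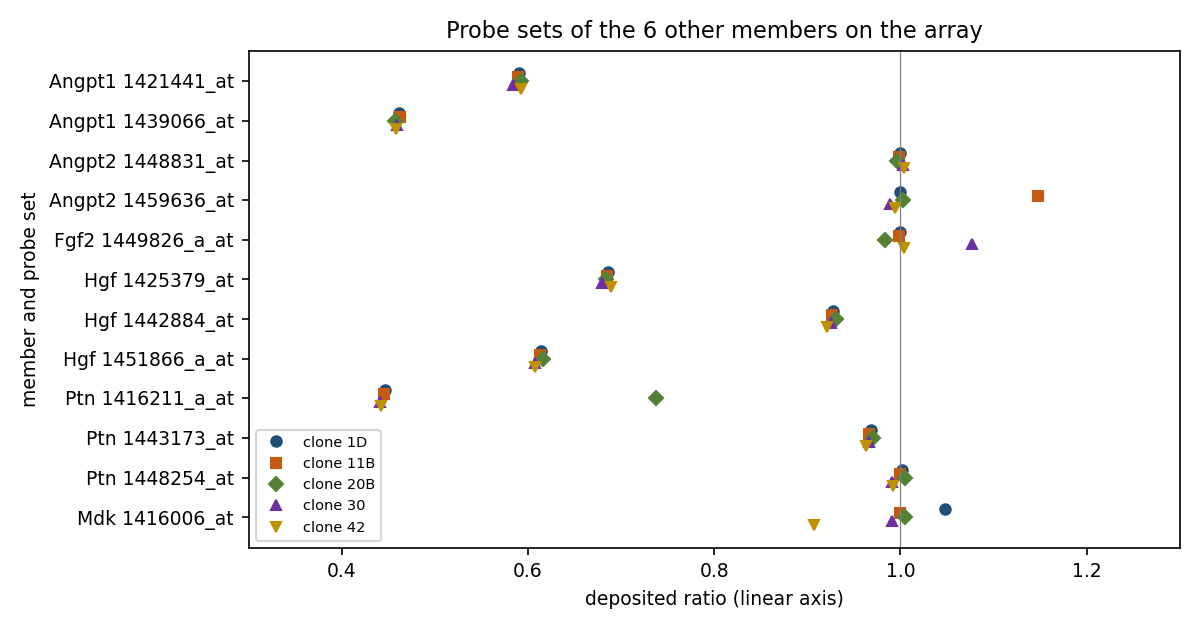
Deposited ratio (linear axis) of every probe set of Angpt1, Angpt2, Fgf2, Hgf, Ptn and Mdk, 1 marker per clone. The 3 Hgf and 2 Angpt1 probe sets lie below 1 with the clones on top of each other, and the Ptn probe set 1416211_a_at has clone 20B at 0.738 against 0.441 to 0.446 in the others.

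A range of 1 log2 unit or more was found for 3 of the 6 measured members and for 13.0% of the 9435 measured genes. At a limit of 0.6 log2 units it was the same 3 members and 33.3% of the genes. The members were listed with these ranges known, so nothing is read from that share. The nearest members on either side of the limit were Angptl4 at 1.87 and Angpt2 at 0.22 log2 units. The median range was 1.04 log2 units over the 6 members and 0.41 over all measured genes. No member lay at least 1 log2 unit above all other clones in 1 clone (1.59% of measured genes did). Fgf7 in clone 30 and Angptl4 in clone 42 lay that far below all others, where 1.27% of measured genes did so in any clone, 0.583% in clone 30 and 0.307% in clone 42.

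**Figure D3:**
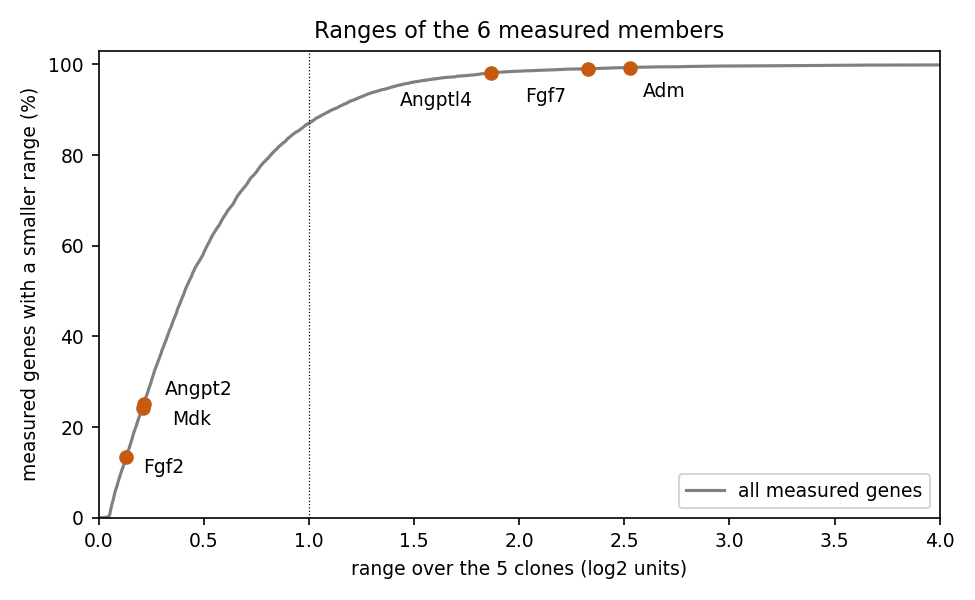
Share of all 9435 measured genes with a smaller range (vertical axis, %) against the range over the 5 clones in log2 units (horizontal axis); the dotted line marks 1 log2 unit. Adm, Fgf7 and Angptl4 lie at 99.3%, 99.0% and 98.1%, and Angpt2, Mdk and Fgf2 at 25.1%, 24.2% and 13.5%.

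The 3 variable factors combined differently among the clones. Clone 20B and clone 11B had high Adm with Fgf7 and Angptl4 near the middle. Clone 1D had the highest Fgf7, by an uncertain margin, and intermediate Adm. Clone 30 had low Adm and low Fgf7 together with the highest Angptl4, and clone 42 had low Adm and the lowest Angptl4 with Fgf7 in the middle. Between clones 30 and 42, which shared low Adm, Angptl4 was higher in 30 (1.82% of measured genes were higher there by at least 1 log2 unit) and Fgf7 was higher in 42 (2.26%). Clones 11B and 20B were less than 1 log2 unit apart in all 6 measured members; over all measured genes 0.551% were that much higher in 11B and 1.14% in 20B.

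The receptors were taken from lists of related genes. Adrenomedullin signals through Calcrl, a receptor made specific by the accessory proteins Ramp2 and Ramp3. Calcrl had 1 measured probe set with a range of 0.12 log2 units, and Ramp1 stayed below the floor. Ramp2 had ratios of 1.00 in clone 1D, 0.998 in 11B, 1.00 in 20B, 1.71 in 30 and 0.992 in 42. Ramp3 had 0.870, 0.869, 0.868, 1.43 and 0.868. Both accessory proteins were highest in clone 30, where Adm was low, each on 1 probe set and by less than 1 log2 unit. Ramp2 was flat without clone 30, and Ramp3 had no other clone above 1, so both counted as measured only through clone 30. That this clone stood apart was thus fixed by the rule. Pam, the enzyme that amidates adrenomedullin and many other peptides, ran from -0.74 in clone 11B to 0.75 in clone 30 on the log2 scale, opposite to Adm in these clones. Of the 10 genes with a probe set in the list of adrenomedullin receptors and relatives, 5 were measured and 1, Pam, ranged over at least 1 log2 unit. The median range was 0.72 log2 units. For this and each list below, the values over all measured genes are 13.0% and 0.41. Mme, a peptidase that degrades such peptides, had a range of 0.68.

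Fgf7 acts through the epithelial splice form of Fgfr2, which these probe sets were not assigned to separately. Fgfr2 had the widest range of its list, 1.70 log2 units, with 1.17 in clone 42 and -0.53 in clone 1D. Its probe sets disagreed: clone 42 was highest at 3.95 on 1420847_a_at, but clone 11B was highest at 1.47 on 1433489_s_at, so the order of the clones is uncertain. Fgfr1, which binds Fgf2, ranged over 0.84 log2 units, lowest in clone 11B at -0.55. Fgfrl1, a receptor without a kinase domain, was highest in clone 30 at 0.71 and lowest in 20B at -0.55. The adaptors Gab1, at -1.02 in clone 30, and Grb2, at 0.64 in clone 42, also passed 1 log2 unit of range. Altogether 4 of 5 measured genes of FGF receptors and adaptors did so, with a median range of 1.10 log2 units.

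Of 22 other FGF ligands and binding proteins, all with a probe set, 16 were not measured and 1 of the 6 measured ones passed 1 log2 unit. This was Fgf12, an intracellular family member that is not secreted, with ratios of 1.32 in clone 1D, 1.00 in 11B, 1.00 in 20B, 0.448 in 30 and 0.996 in 42. Clone 30 was lowest and clone 1D highest, as for Fgf7. Fgf9, Fgf21 and Fgf18, secreted ligands, had ranges of 0.42, 0.29 and 0.25 log2 units.

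Tek, which encodes Tie2, had 1 probe set below the floor, between 0.827 and 0.833. Itgb1, an integrin chain that also binds angiopoietins, was the only gene of its list to pass 1 log2 unit. It had 0.92 in clone 42, 0.72 in 1D and -0.78 in 30 over 3 measured probe sets of 6. The others were flat, 1426919_at at 0.99 to 1.02, 1426920_x_at at 0.998 to 1.00 and 1438119_at below the floor. Angpt4, Itga5 and Itgav ranged over 0.65, 0.58 and 0.40 log2 units. Among relatives and targets of Angptl4, Lpl, the lipoprotein lipase that it inhibits, ranged over 0.16 log2 units. Lipg, the endothelial lipase, was 0.72 in clone 11B and -0.44 in clone 30, on 1 measured probe set of 3. Pcsk6 and Furin, convertases that can cleave angiopoietin-like proteins, ranged over 0.49 and 0.32.

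Met, the receptor of Hgf, was flat on both probe sets, at 0.995 to 1.00 and at 0.770 to 0.774. In the list of Hgf processing and relatives 6 of 14 genes were measured, and Gab1, an adaptor that also serves Met, alone passed 1 log2 unit. Plau, urokinase, which can activate pro-Hgf, was highest in clone 42 on both of its probe sets, at 1.03 against 0.620 to 0.643 in the other clones on 1422138_at and 0.998 against 0.698 to 0.702 on 1422139_at. The first counted as measured only through clone 42, and the second did not count. Hgs ranged over 0.79 log2 units and Hpn over 0.09.

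For pleiotrophin and midkine, the receptor phosphatase Ptprz1 was not measured and the kinase Alk ranged over 0.43 log2 units, from -0.19 in clone 30 to 0.25 in clone 42. Some syndecans, cell surface proteoglycans that hold heparin-binding factors, varied in different clones. Sdc1 was highest in clone 30 at 0.68 over 4 probe sets, and Sdc3 ran from 0.61 in clone 1D to -0.46 in clone 42 over 2. Sdc4 was highest in clone 42 at 0.97 on 1 probe set, which counted as measured only through that clone. The Sdc3 probe sets disagreed on clone 42, which was lowest at 0.514 on 1450027_at but stood at 1.02 on 1420853_at. Itga6, a laminin-binding integrin chain, had the widest range of this list, 1.79 log2 units, with -1.38 in clone 30, but only 1 of its probe sets moved. Of 9 measured genes 4 passed 1 log2 unit, and the median range was 0.74. Enzymes and core proteins of heparan sulfate, the sugar that FGFs need for receptor binding, had a median range of 0.36 log2 units. Of 14 measured genes 2 passed 1 log2 unit, Hs3st1 at 1.15 and Ndst2 at 1.01, and Extl3 and Gpc1 ranged over 0.88 and 0.72.

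**Figure D4:**
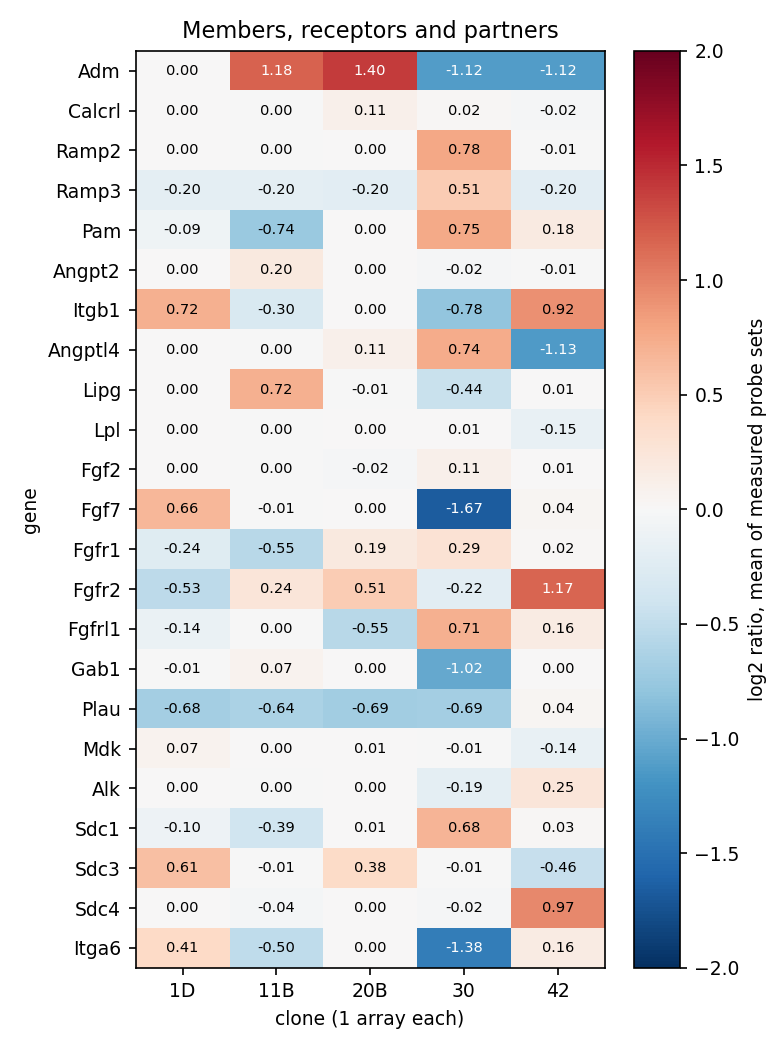
Log2 ratio (colour and printed value, mean of measured probe sets) of measured members, receptors and partners in the 5 clones, 1 array each. Ramp2, Ramp3 and Pam are highest in clone 30, where Adm is -1.12, and Fgfr2 and Sdc4 are highest in clone 42. Ramp2 and Ramp3 counted as measured only through clone 30, and Sdc4 only through clone 42.

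Adm and Angptl4 are both known targets of hypoxia-inducible factors, and Angptl4 of PPAR receptors. Of 14 measured genes in a list of hypoxia targets and factors none ranged over 1 log2 unit, with a median range of 0.48. The widest were Hif1a at 0.99, lowest in clone 11B at -0.72, Ndrg1 at 0.94, Ldha at 0.89 and Ero1a at 0.79. Ndrg1 was 0.45 in clone 20B and -0.49 in clone 42, and Ldha was -0.60 and 0.30 in the same clones, the opposite order. In the PPAR list 2 of 7 measured genes passed 1 log2 unit. Pparg, the regulator of fat cell genes, had ratios of 1.11 in clone 1D, 0.752 in 11B, 1.40 in 20B, 1.00 in 30 and 0.309 in 42, so clone 42 was lowest, as for Angptl4. Cd36, a fatty acid carrier, was 1.35 in clone 20B, 0.89 in 1D and -0.44 in 42 on the log2 scale. Fabp4 was also highest in clone 30 at 0.32 and lowest in clone 42 at -0.36, and Ppard ranged over 0.46.

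Marker genes of other cell types were set beside these values. No endothelial marker was measured: all 10, among them Pecam1, Cdh5 and Kdr, were flat or below the floor in all 5 clones. Leukocyte markers were measured for 4 of 9 genes and cardiomyocyte markers for 4 of 10, none with a range of 1 log2 unit, the widest being Laptm5 at 0.33 and Myh6 at 0.56, which counted as measured only through clone 42. Smooth muscle markers were measured for 5 of 10, and Tagln was 1.83 in clone 30. Only Tagln passed 1 log2 unit of range, while Des, Acta2, Myh11 and Abcc9 ranged over 0.65, 0.26, 0.07 and 0.05. Of the mesothelial markers 4 of 10 were measured, and clone 30 was highest for Krt8 (1.50), Upk3b (0.44) and Msln (0.81). Upk3b and Msln counted as measured only through clone 30, so for these genes the rule fixed that clone as set apart. Krt18, the usual partner of Krt8, was within a range of 0.08, with clone 30 lowest at -0.02. Fibroblast markers were measured for 5 of 10, with Col3a1 at -6.33 and Col1a1 at -2.13 in clone 42. The Col3a1 value came from 1 of its 2 probe sets. Pdgfra and Ddr2 were highest in clone 42, at 0.70 and 0.34, and Postn, measured only through clone 11B, ranged over 0.28. The median deviation of the measured fibroblast markers in clone 42 was -0.02. Low Fgf7 and high Angptl4 in clone 30, and low Angptl4 in clone 42, were found beside these values. The markers of a list did not all move together, and their part in the result was not tested. Of the markers by which the cells were named, Kit ranged over 0.26 log2 units, highest in clone 20B, and Pou5f1 was not measured. Ly6a, the gene of Sca-1, had no probe set of its own in the annotation used here.

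Genes that followed the variable members were sought among those with at least 2 measured probe sets and a range of at least 1 log2 unit, by the root mean square difference of median-centred log2 ratios over the 5 clones. With 5 points such likeness is a description. Nearest to Angptl4 were Emilin1, an elastic fibre glycoprotein, at 0.17 log2 units, Sparc, a collagen-binding matrix protein, at 0.17 and Ncam1, a cell adhesion molecule, at 0.24. All 3 means were highest in clone 30 and lowest in clone 42. Single probe sets disagreed: clone 1D was highest for Emilin1 on 1431834_a_at, at 1.32, and clone 42 for Sparc on 1458204_at, at 1.11. For Ncam1 clone 11B was highest on 1426864_a_at, at 1.86 against 1.76 in clone 30, and on 1450437_a_at clone 1D was highest at 1.07 and 11B lowest at 0.883. Nearest to Fgf7 were Itga6 at 0.28, Ptprf, a receptor phosphatase, at 0.31 and the chaperone Dnaja4 at 0.34, with means all lowest in clone 30. On the Ptprf probe set 1420841_at clone 11B, at 0.418, lay just below clone 30, at 0.432. Adm had no gene as close: Pnkd lay at 0.57, Hacd1 at 0.63 and Srgap2 at 0.65. Pnkd was 0.60 in clone 11B and 0.66 in 20B, against 1.18 and 1.40 for Adm, and -0.94 in clone 30. The Adm range exceeded that of each of these 3 genes, which ran from 1.43 to 1.63 log2 units.

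**Figure D5:**
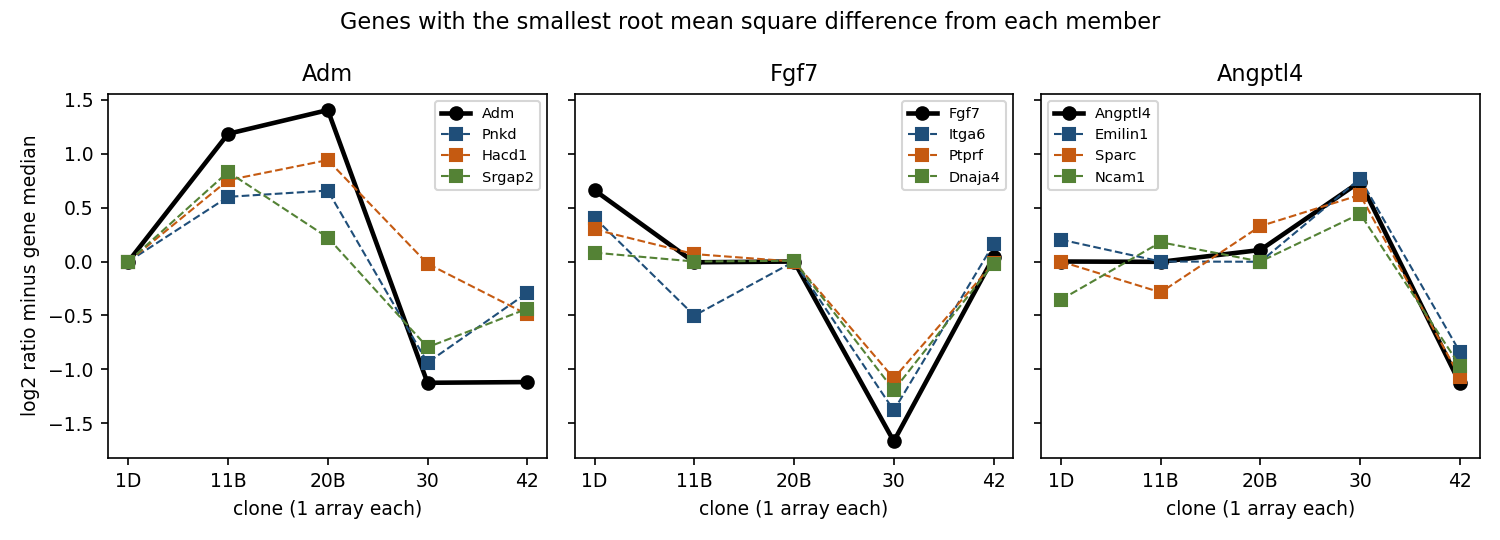
Log2 ratio minus the gene's median over the clones (vertical axis) in the 5 clones, for Adm, Fgf7 and Angptl4 (black) and the 3 genes nearest to each (dashed). The Angptl4 neighbours lie within 0.17 to 0.24 log2 units of it, those of Adm at 0.57 to 0.65.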

How the data were processed

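RNA from 5 clones was measured on Affymetrix arrays, 1 per clone. The authors deposited a table of ratios on a linear scale; RMA and GCRMA are named, without versions or roles, in the submitters' processing notes. The scaling to a median or a floor was read from the values: the median was exactly 1 on 18926 of 45101 probe sets, below 1 on 26175 and never above 1. The floor and the array normalization are not given in the sources used here.

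Gene names came from the supplied array annotation, with symbols updated through a RefSeq table of assembly GRCm38.p6 that matched 34741 of 34945 probe sets by gene ID. Only probe sets with 1 symbol were used (34958 had 1, 932 several and 9211 none), without controls. Log2 ratios of measured probe sets were averaged per gene with Python 3.11.15 and pandas 2.3.3. Clones within 0.02 log2 units were called tied. Arrays have no read depth.

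The members and gene lists were chosen with earlier results of these data known. Genes named were the members, their receptors, the widest-ranging genes of each list and those nearest to a member. The spelling GCGTG was added after the values were seen. Calculations were tested on simulated ratios. Alternatives covered the averaging of probe sets, marked probe sets, array scale, the floor, each clone left out and the size limit.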

Additional observations from a re-analysis of the deposited data

How the results depend on the processing

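No paired analysis was possible because each clone is a single array. Only 2 members in place of 3 reached a range of 1 log2 unit when clone 30 or clone 42 was left out, when marked probe sets were dropped, or when every probe set was averaged. Of 27 recomputed counts of members 25 stayed within 1.5 times the value reported, these included. Of 70 recomputed ranges 63 moved by less than 0.30 log2 units, the spread of a single probe set. Angpt2, Fgf2 and Mdk ranged over less than this spread, and leaving out a middle clone cannot change a range. Many entries were thus bound to stay, and the tallies are no measure of stability. With every probe set averaged, the members set apart below went from 2 to 1 and the range of Angptl4 to 0.95 log2 units. Without probe sets that carry an s, x or a mark they also went to 1, the range of Adm became 1.64, and Angptl4 and Fgf2 had no measured probe set left; the a mark of the Fgf2 probe set stands for transcripts of 1 gene, not for cross-hybridization. Taking for each gene its probe set with the greatest mean, the range of Adm was 3.58. Quantile normalization and centring of the arrays moved none of the 3 wide ranges by that spread. Setting values to the floor left these ranges unchanged. Use of own-median probe sets alone could not change them, because every measured probe set of these 3 genes was scaled to its own median. With each clone left out the range ran from 2.31 to 2.53 for Adm, from 0.67 (without clone 30) to 2.33 for Fgf7 and from 0.74 (without clone 42) to 1.87 for Angptl4. Neighbours were also chosen by Pearson correlation over all genes of wide range. For each of Adm, Fgf7 and Angptl4, 0 of the 3 nearest genes were the same. Every gene chosen by correlation had 1 measured probe set, and the first search required at least 2. The change of measure and the change of genes searched therefore cannot be told apart. With a limit of 0.6 log2 units the count of members was still 3.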

Other observations

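Vegfa, the main vascular endothelial growth factor, is also in the list of hypoxia targets and factors. It was looked at after its values were seen, as another secreted factor of the vessel wall. On probe set 1420909_at its ratios were 0.769 in clone 1D, 1.44 in 11B, 1.50 in 20B, 0.997 in 30 and 1.00 in 42. Clones 11B and 20B were thus highest for Vegfa as for Adm, but clone 1D was lowest. On probe set 1451959_a_at the ratios lay between 0.891 and 1.05, so the probe sets disagree on the size.

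By correlation, with single probe sets allowed, the genes nearest to Adm were Filip1l, Gstk1 and Chst2, which encodes a sulfotransferase. Chst2 was 0.95 in clone 20B and -1.28 in clone 30 after centring on its median. The nearest to Angptl4 were Aldh3a1, an aldehyde dehydrogenase, Col6a3, a chain of collagen VI, and Dlg3. Aldh3a1 was 2.10 in clone 30 and -3.49 in clone 42, and Col6a3 was 0.88 and -1.11. Those nearest to Fgf7 were Mrpl50, Fgf12 and Rnd3, each lowest in clone 30, at -0.74, -1.16 and -0.99. Each of these 9 genes rested on 1 measured probe set.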
